A study of Homo sapiens with 24 samples.

Results

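The genes described here encode the hemidesmosome and its laminin ligand. They are LAMA3, LAMB3, COL17A1, ITGA6, ITGB4, DST, PLEC and TP63, 8 of the 26346 genes in the deposited count tables, taken by symbol. They were followed across 24 polyA RNA sequencing libraries in 12 groups of 2, made from 3 human cell lines. VCaP and LNCaP derive from prostate cancer. In VCaP a gene fusion places the ETS transcription factor ERG under the TMPRSS2 promoter. SW13 is an adrenal carcinoma line known for the loss of BRG1, the SMARCA4 product and an ATPase of the BAF chromatin remodeler.

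All groups had been exposed to lentivirus for 48 h before drug selection. VCaP carried a control hairpin (shCt), a hairpin against ERG (shERG) or a hairpin against ARID1A (shARID1A), a BAF subunit, and was kept in puromycin for 8 days. LNCaP carried an empty vector (Empty), ERG or ETV1, a related ETS factor, and was kept in blasticidin for 4 days. SW13 carried either an empty vector or V5-tagged ERG together with BRG1, the ATPase mutant BRG1-K785R or a control, and was kept in both drugs for 2 days. The titles call that control GFP, while the protocol text of most samples names luciferase, and the name GFP is kept here. The duplicates were infected, selected and cultured separately, and each knockdown is represented by 1 group. In bulk RNA, fewer cells making a transcript cannot be told apart from less transcript per cell.

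A hemidesmosome rivets a basal epithelial cell to its basement membrane. Outside the cell, laminin-332 is a secreted basement membrane protein whose α and β chains come from LAMA3 and LAMB3. It is bound by the integrin of ITGA6 and ITGB4 and by the transmembrane collagen of COL17A1. Inside, the plakins from PLEC and DST tie that complex to keratin filaments. TP63 encodes p63, the transcription factor of basal epithelium that controls several of these genes. In the prostate hemidesmosomes are a feature of basal cells, and loss of the ITGB4 and LAMB3 products is a long-described feature of prostate carcinoma.

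The promoters of the laminin chain and collagen genes are shown because LAMB3 and COL17A1 had the widest swings, and ITGA6 because it often went another way. Each window runs from 250 bases before to 50 bases after a transcription start in RefSeq (GRCh38.p14). Of the 8 genes, 6 had windows in that table, 11 in all. Printed are LAMA3 (chr18:23872770-23873069, plus strand), the third LAMB3 start (chr1:209651325-209651624, minus strand), COL17A1 (chr10:104085831-104086130, minus strand) and the second ITGA6 start (chr2:172427336-172427635, plus strand). Capitals mark every match, on either strand, to TGANTCA, the letters of an AP-1 site, or to GGAAG, the core letters of an ETS site. No match to one overlapped a match to the other.
LAMA3: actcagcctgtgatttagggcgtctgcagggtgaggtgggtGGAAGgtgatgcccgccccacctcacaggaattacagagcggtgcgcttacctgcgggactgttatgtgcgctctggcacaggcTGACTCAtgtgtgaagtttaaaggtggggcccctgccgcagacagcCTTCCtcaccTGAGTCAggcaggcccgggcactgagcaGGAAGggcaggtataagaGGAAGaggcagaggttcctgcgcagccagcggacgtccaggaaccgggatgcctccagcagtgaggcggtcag
LAMB3: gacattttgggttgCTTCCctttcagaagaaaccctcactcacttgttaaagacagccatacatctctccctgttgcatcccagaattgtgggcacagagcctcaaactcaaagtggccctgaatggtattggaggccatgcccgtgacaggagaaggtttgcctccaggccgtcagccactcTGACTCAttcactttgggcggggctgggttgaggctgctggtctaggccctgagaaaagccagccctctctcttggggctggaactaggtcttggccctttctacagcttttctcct
COL17A1: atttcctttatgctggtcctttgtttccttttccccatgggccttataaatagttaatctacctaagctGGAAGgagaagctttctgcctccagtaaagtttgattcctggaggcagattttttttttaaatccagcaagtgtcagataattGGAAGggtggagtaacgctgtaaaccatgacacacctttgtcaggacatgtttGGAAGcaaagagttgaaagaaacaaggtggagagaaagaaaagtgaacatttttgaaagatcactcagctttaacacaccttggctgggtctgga
ITGA6: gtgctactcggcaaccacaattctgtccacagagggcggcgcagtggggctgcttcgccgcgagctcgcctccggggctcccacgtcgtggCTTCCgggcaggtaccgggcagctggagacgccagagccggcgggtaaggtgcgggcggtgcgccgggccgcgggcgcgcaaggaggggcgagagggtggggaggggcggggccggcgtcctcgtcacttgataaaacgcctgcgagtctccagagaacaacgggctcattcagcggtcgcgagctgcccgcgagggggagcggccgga

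TGANTCA occurred in 7.71% and GGAAG in 71.9% of the 35116 windows in the table, so a GGAAG match is common in windows of this length. LAMA3 held 2 TGANTCA matches, beginning 125 and 69 bases before the start, and 4 GGAAG matches. The third LAMB3 start held 1 TGANTCA match, beginning 67 bases before it, and 1 GGAAG match, and the other 2 LAMB3 windows held neither. COL17A1 held 3 GGAAG matches and no TGANTCA. ITGA6 held 1 match to GGAAG at the second start, part of the longer CCGGAAG found in 10.3% of windows, and its first window held neither. Of the other windows not printed, the first DST start held 1 TGANTCA match. The second DST start held 2 GGAAG matches and the TP63 start 1. These matches describe letters only, and gene counts do not tell which start was used.

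Levels are CPM, a gene's reads scaled to the total counted reads of its library, and libraries held 19754265 to 41996681 counted reads. Changes are log2 values from edgeR's quasi-likelihood fit, made per cell line with TMM scaling. A gene was called at a two-sided Benjamini-Hochberg adjusted p under 0.05. The ± value of a change is its size divided by the square root of its F statistic. It approximates a standard error (SE), which the test itself does not give, and can be too small where a group has few reads. Of the 8 genes 7 passed the filter on low counts in each line, and TP63 passed in none. The targeted genes followed the labels in the groups given here. ERG read 330.4 and 354 CPM with shCt against 81.0 and 87.9 with shERG, and ARID1A 251 and 249.8 with shCt against 71.9 and 75.3 with shARID1A. In LNCaP, ERG rose from under 1 CPM to 996 and 958, and ETV1, already at 568 and 590.5, to 3749 and 3626. In SW13, SMARCA4 stood at 25.5 to 35.4 CPM with GFP, at 1959 to 2264 with BRG1, at 2180.2 and 2039 with BRG1-K785R alone and at 1417 and 1429.7 with BRG1-K785R and ERG. All 8 markers of luminal prostate were present in VCaP and LNCaP at 1 CPM or more, whereas the 6 adrenal cortex markers summed to at most 1.06 CPM in SW13, with CYP11B1 and MC2R at 0 in all its libraries.

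Across the 24 libraries each line expressed a different portion of the set. LAMA3, the α chain of laminin-332, ran from 70.1 to 131 CPM in VCaP and from 115 to 192 in LNCaP, but from 0.223 to 5.51 in SW13. LAMB3, the β chain, stayed between 0.581 and 4.33 CPM in VCaP, spanned 1.97 to 85.8 in LNCaP and spanned 0 to 25.2 in SW13. COL17A1 did not pass 1.93 CPM in VCaP or 9.06 in LNCaP, and its highest libraries were the 2 SW13 libraries with BRG1 alone, at 44.8 and 41.8. ITGA6 was present throughout, from 20.4 to 266 CPM. ITGB4, its partner, was highest in VCaP with shARID1A, at 53.0 and 55.8 CPM, and lowest in LNCaP Empty, at 3.70 and 4.10. DST, the spectraplakin gene whose epithelial product is BPAG1e, ran from 468 to 1034 CPM in SW13, from 152 to 232 in VCaP and from 8.89 to 12.9 in LNCaP. PLEC, for plectin, stayed between 206 and 682 CPM everywhere. DST and PLEC also have products outside epithelia, and these counts do not separate isoforms.

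TP63 was at or near 0 in every library. VCaP libraries held 0 to 2 TP63 reads, LNCaP libraries 0 to 8 and SW13 libraries 1 to 10, which is at most 0.407 CPM. The 2 SW13 groups without ERG that carried BRG1 (6 and 10 reads) or BRG1-K785R (4 and 9 reads) had the most, and with ERG each of those 4 libraries had 1 read. By counting alone, the ratio of the BRG1 group without ERG to the one with it was 7.83, with a 95% exact interval of 1.84 to 70.2. The same ratio was 5.28 (1.19 to 48.2) beside BRG1-K785R and 8.33 (1.19 to 362) in LNCaP. Beside GFP the direction was the other way, with 1 and 2 reads without ERG and 1 and 6 with it (2.31, 0.526 to 13.8). These intervals cover counting error only and not the spread between cultures. No test across genes was run on TP63.

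**Figure D1:**
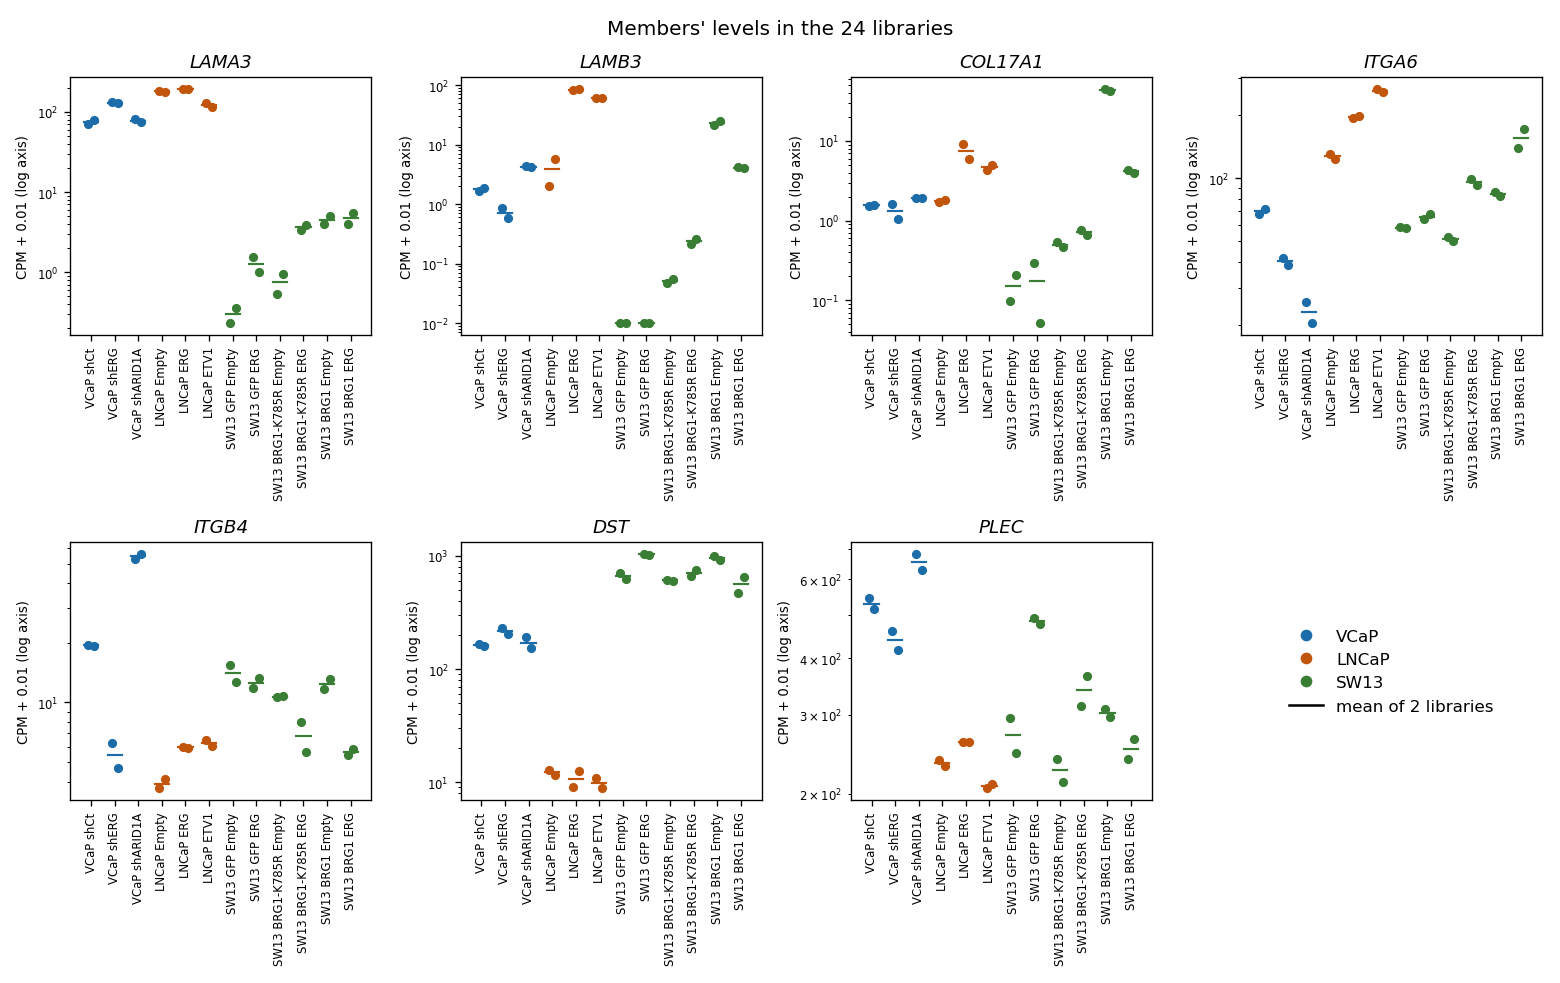
CPM of 7 of the 8 genes in each of the 24 libraries, with 0.01 added for the log axis, points for libraries and bars for the mean of 2. LAMB3 rises in LNCaP with ERG or ETV1 and in SW13 with BRG1 alone, and its 4 SW13 GFP libraries sit at the added value because they had no read.

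In order of group means, LAMA3 fell from LNCaP ERG (191 ± 1.22 CPM, SD, n = 2) to SW13 GFP Empty (0.288 ± 0.0919), and the neighbours VCaP shERG and LNCaP ETV1, VCaP shARID1A and shCt, and the 2 SW13 BRG1 groups overlapped. LAMB3 was ordered from LNCaP ERG (84.2 ± 2.16 CPM) through LNCaP ETV1 (60.6 ± 0.119) and SW13 BRG1 Empty (23.3 ± 2.68) to the GFP groups at 0, and among the groups with reads the neighbours SW13 BRG1 ERG and LNCaP Empty overlapped. For COL17A1 SW13 BRG1 Empty (43.3 ± 2.15 CPM) was followed at a distance by LNCaP ERG (7.51 ± 2.19), and LNCaP ETV1 overlapped SW13 BRG1 ERG. No neighbours of ITGA6 overlapped between LNCaP ETV1 (262 ± 5.84 CPM) and VCaP shARID1A (23.0 ± 3.75). ITGB4 ran from VCaP shARID1A (54.4 ± 2.00 CPM) to LNCaP Empty (3.90 ± 0.277), with the SW13 groups between 5.59 and 14 and several of them overlapping. With TMM scaling in place of library totals, the order within a line differed for LAMA3 in VCaP and for ITGB4, DST, PLEC and TP63 in SW13. Lines differed in virus, drug and days, and no difference between them was tested.

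In VCaP, ERG knockdown went with lower integrin and LAMB3 levels and higher LAMA3, while ARID1A knockdown went with higher ITGB4 and LAMB3 and still lower ITGA6. With shERG 6 of the 7 tested genes were called, 2 higher and 4 lower, where 66.7% of all 16791 tested genes were called (29.3% higher, 37.4% lower). With shARID1A 4 of 7 were called, 3 higher and 1 lower, against 66.1% of all genes (32.9% higher, 33.2% lower). Counts of this size lie close to the background, so the values of each gene carry the result. The median change of the 7 was -0.45 with shERG, against -0.05 over all tested genes, and 0.23 with shARID1A, against 0.01. Both comparisons share the shCt libraries. With library totals as the scale, all shERG changes shift up by 0.183, and 60.5% of called genes are higher against 43.9% with TMM.

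LAMA3 read 70.1 and 80.1 CPM with shCt, 131 and 127 with shERG and 80.6 and 74.0 with shARID1A. Both shERG libraries lay above all others, a change of 0.60 ± 0.06 (1.52-fold, adjusted p = 7.27e-09), while shARID1A overlapped the control (-0.02 ± 0.06, adjusted p = 0.755). LAMB3 was scarce, at 1.68 and 1.87 CPM with shCt, 0.843 and 0.581 with shERG and 4.33 and 4.21 with shARID1A. The 3 groups did not overlap, with a fall of 2.79-fold with shERG (-1.48 ± 0.29, adjusted p = 0.000125) and a rise of 2.29-fold with shARID1A (1.20 ± 0.22, adjusted p = 5.12e-05). Per length, LAMA3 exceeded LAMB3 in RPKM by 16.7 to 17.1 times with shCt, 62.3 to 87.7 times with shERG and 7.04 to 7.46 times with shARID1A. RPKM divides by the deposited length, 11222 bases for LAMA3 and 4495 for LAMB3, whichever isoform was made.

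COL17A1 did not pass the test with either hairpin. It read 1.53 and 1.57 CPM with shCt, 1.59 and 1.05 with shERG (-0.40 ± 0.28, adjusted p = 0.228) and 1.89 and 1.93 with shARID1A (0.23 ± 0.27, adjusted p = 0.459). These are 27 to 54 reads a library, so small changes were not detectable at this depth.

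Both integrin subunits fell with shERG, and they went opposite ways with shARID1A. ITGB4 read 19.5 and 19.3 CPM with shCt, 6.23 and 4.65 with shERG and 53.0 and 55.8 with shARID1A. It was 4.01-fold lower with shERG (-2.00 ± 0.11, adjusted p = 3.63e-13) and 2.68-fold higher with shARID1A (1.42 ± 0.08, adjusted p = 6.87e-13), and the 2 knockdowns stood 10.7-fold apart (adjusted p = 2.3e-18). ITGA6, which encodes the α6 subunit, read 67.6 and 71.7 CPM with shCt, 41.7 and 38.7 with shERG and 25.7 and 20.4 with shARID1A. It was lower in all 4 knockdown libraries, by 0.97 ± 0.07 on the log2 scale with shERG (adjusted p = 1.51e-10) and by 1.65 ± 0.08 with shARID1A (adjusted p = 4.21e-14). The RPKM ratio of ITGA6 to ITGB4 was 3.64 to 3.88 with shCt, 7.01 to 8.72 with shERG and 0.382 to 0.507 with shARID1A.

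Of the plakins, PLEC read 545 and 514 CPM with shCt, 461 and 418 with shERG (-0.45 ± 0.05, adjusted p = 1.39e-07) and 682 and 628 with shARID1A (0.24 ± 0.05, adjusted p = 0.000368). DST read 165 and 159 CPM with shCt, 232 and 203 with shERG and 190.3 and 152 with shARID1A. DST was called higher with shERG (0.24 ± 0.07, adjusted p = 0.00674), a call lost in DESeq2 (adjusted p = 0.115) and without the second shCt library (adjusted p = 0.0699), and was not called with shARID1A (0.01 ± 0.07, adjusted p = 0.902). Between the knockdowns all 7 genes were called, 4 higher and 3 lower with shARID1A, against 73.0% of all genes (36.8% higher, 36.2% lower), and the median was 0.63 against -0.01. COL17A1 was among them (0.63 ± 0.27, adjusted p = 0.0444), but lost its call without the second shERG library (0.38, adjusted p = 0.29), with DESeq2 and with several other settings. DST, lower with shARID1A than with shERG (-0.23 ± 0.07, adjusted p = 0.00804), lost its call with DESeq2 (adjusted p = 0.15) and without the second shARID1A library (adjusted p = 0.0994). With library totals this comparison shifts by -0.116.

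Other genes of the adhesion plaque went partly the same way in VCaP. Of 8 listed partners 7 were tested, and 1 rose and 5 fell with shERG, with a median of -0.31, while 4 rose and 2 fell with shARID1A, with a median of 0.26. KRT14, a basal keratin gene, fell 7.56-fold with shERG (adjusted p = 1.48e-09) and 3.13-fold with shARID1A (adjusted p = 1.29e-06). ITGA3, which encodes another laminin-332 receptor chain, changed by -0.28 ± 0.06 and 0.62 ± 0.05 (adjusted p = 0.00015 and 1.29e-09). ITGB1 rose with both (0.49 ± 0.04 and 0.26 ± 0.04, adjusted p = 1.38e-09 and 1.38e-05). Of 15 textbook p63 target genes 13 were tested, and 3 rose and 9 fell with shERG (median -0.66) while 7 rose and 4 fell with shARID1A (median 0.35), with TP63 itself at 0 to 2 reads. Of the 9 other laminin chain genes 7 were tested, and 4 rose and 2 fell with shERG while 3 rose and 2 fell with shARID1A. With shERG LAMC1 fell 2.77-fold with shERG (adjusted p = 6.19e-17) as LAMB4 rose 2.45-fold (adjusted p = 1.36e-09). Of the 5 other plakin genes 2 fell with shERG, and 3 rose and 2 fell with shARID1A. Of 14 tested basement membrane genes 4 rose and 5 fell with shERG, and 3 rose and 7 fell with shARID1A. These counts are to be read against the 66.7% and 66.1% of all tested genes called with shERG and shARID1A.

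The sum of basal or squamous epithelium markers was lower with shERG and with shARID1A, whereas ITGB4 and LAMB3 rose with shARID1A. The 6 markers summed to 6.69 and 8.07 CPM in the shCt libraries, 0.778 and 1.78 with shERG and 2.62 and 4.01 with shARID1A, and KRT13 and DSG3 were at 0 in both the shCt and the shARID1A libraries. KRT14, already counted above among the partners and the p63 targets, alone reached 1 CPM. The 8 luminal markers summed to 12862 and 13474, 8336 and 8616, and 10539.8 and 11006 CPM in the same order. ERG itself was lower with shARID1A, at 242 and 238 CPM (-0.58 ± 0.05, adjusted p = 7.31e-10). The part of any of these in the results was not tested.

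In LNCaP the β chain of laminin-332 and the hemidesmosomal collagen were higher with either ETS factor. With ERG 5 of 7 genes were called, all higher, where 29.7% of 16993 tested genes were called (15.4% higher, 14.3% lower). With ETV1 6 of 7 were called, 4 higher and 2 lower, against 26.1% (13.2% higher, 12.9% lower). The median change was 0.61 with ERG, against 0 over all tested genes, and 0.72 with ETV1, against 0.01. Both comparisons share the Empty libraries. With library totals 40.0% of genes called with ETV1 are higher, against 50.5% with TMM.

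LAMB3 read 1.97 and 5.71 CPM with Empty, 82.7 and 85.8 with ERG and 60.5 and 60.7 with ETV1. The Empty libraries differed between themselves, yet all 4 ETS libraries lay more than 10 times above the higher of them. The change was 4.45 ± 0.27 with ERG (21.8-fold, adjusted p = 1.04e-05) and 4.00 ± 0.27 with ETV1 (16.0-fold, adjusted p = 1.78e-05). Without the second Empty library these were 5.43 and 4.99. ERG and ETV1 did not differ by the test (0.45 ± 0.20, adjusted p = 0.177), although their libraries did not overlap.

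LAMA3 was already abundant, at 184 and 178 CPM with Empty, and read 190.4 and 192 with ERG and 130.0 and 115 with ETV1. It was not called with ERG (0.09 ± 0.06, adjusted p = 0.298) and was lower in both ETV1 libraries (-0.52 ± 0.06, adjusted p = 0.000371). Per length, the RPKM of LAMA3 was 12.5 to 37.4 times that of LAMB3 with Empty, 0.897 to 0.922 times with ERG and 0.761 to 0.861 times with ETV1. By the deposited lengths LAMB3 thus reached the level of LAMA3 with either factor. The counts do not tell which LAMA3 isoform was made, and a shorter one would raise LAMA3 per length.

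**Figure D2:**
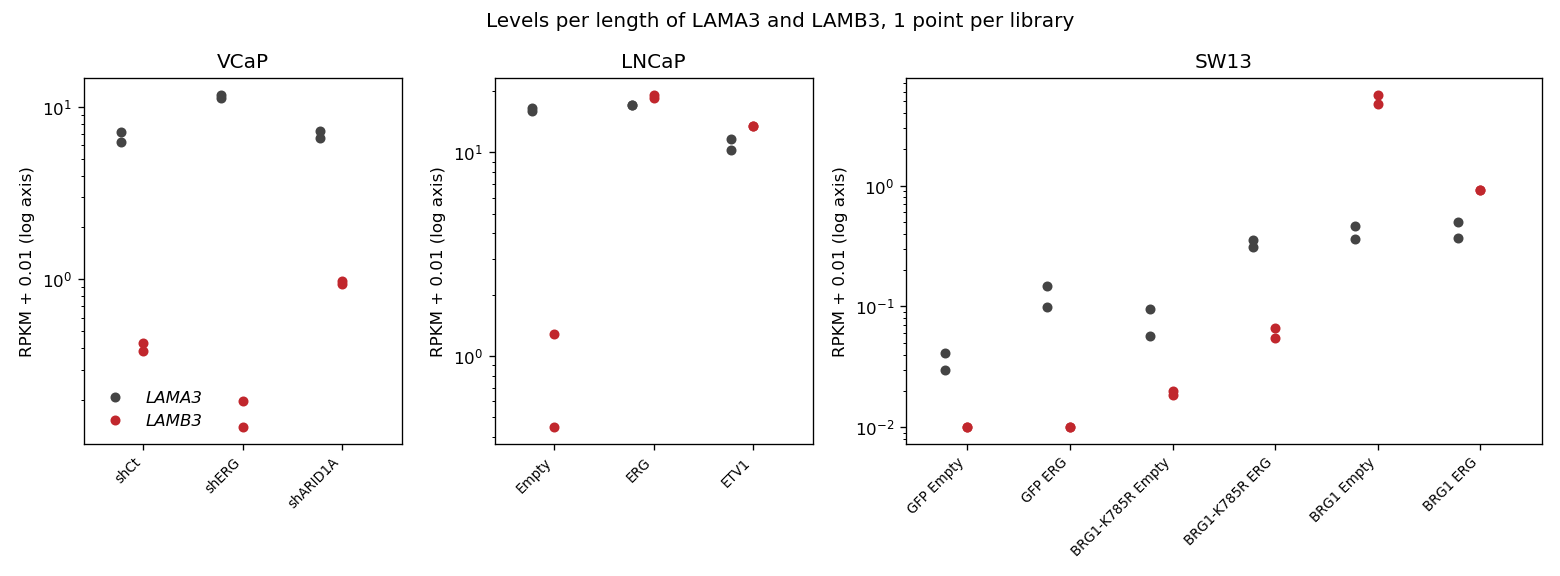
RPKM of LAMA3 and LAMB3 in each library, with 0.01 added for the log axis. By the deposited lengths, LAMB3 reaches the level of LAMA3 in LNCaP with ERG or ETV1 and stays far below it in VCaP. In SW13 LAMB3 leads with BRG1.

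COL17A1 read 1.71 and 1.81 CPM with Empty, 9.06 and 5.96 with ERG and 4.33 and 5.04 with ETV1. All 4 ETS libraries lay above both controls, with changes of 2.11 ± 0.22 (4.31-fold, adjusted p = 0.000181) and 1.45 ± 0.22 (2.73-fold, adjusted p = 0.00172). Between ERG and ETV1 it missed the threshold (0.66 ± 0.20, adjusted p = 0.0562).

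ITGA6 read 131 and 123 CPM with Empty, 193 and 198 with ERG and 266 and 257 with ETV1. The 3 groups were apart, with rises of 1.55-fold (0.63 ± 0.05, adjusted p = 2.9e-05) and 2.11-fold (1.08 ± 0.05, adjusted p = 1.92e-06), and ERG stood below ETV1 (-0.45 ± 0.05, adjusted p = 0.000448). ITGB4 read 3.70 and 4.10 CPM with Empty, 5.96 and 5.89 with ERG and 6.44 and 6.06 with ETV1. Both rises were called (0.61 ± 0.13, adjusted p = 0.00711, and 0.72 ± 0.13, adjusted p = 0.0035), the former lost without the first Empty library (adjusted p = 0.0537). The RPKM of ITGA6 was 31.5 to 44.4 times that of ITGB4 in these 6 libraries.

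Both plakins changed little. PLEC read 238 and 230.2 CPM with Empty, 260.1 and 261 with ERG (0.16 ± 0.04, adjusted p = 0.0171) and 206 and 210.2 with ETV1 (-0.13 ± 0.04, adjusted p = 0.0425). Each of these calls was lost when either Empty library was left out (adjusted p = 0.0717 and 0.145 for ERG, 0.254 and 0.114 for ETV1), and also without single ERG or ETV1 libraries. DST read 12.9 and 11.7 CPM with Empty, 9.04 and 12.5 with ERG and 10.8 and 8.89 with ETV1, with no call (adjusted p = 0.388 and 0.22). Between ERG and ETV1 3 of 7 genes were called, against 14.4% of all genes (7.87% higher, 6.5% lower), with 64.8% of all called genes higher with library totals and 54.8% with TMM. LAMA3 and PLEC were higher with ERG (0.61 ± 0.06 and 0.30 ± 0.04, adjusted p = 0.000327 and 0.00206) and ITGA6 was lower, as given above.

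Few other plaque genes were called in LNCaP. With ERG 0 of the 8 partners were called by edgeR and 0 by DESeq2, with 2 at an unadjusted p under 0.05 in edgeR and a median of -0.03. With ETV1 KRT14 was called (0.54 ± 0.14, adjusted p = 0.0187) and the other 7 were not. Among the 15 other integrin genes 14 were tested, and 4 rose and 2 fell with ERG (median -0.09) while 3 rose and 2 fell with ETV1 (median 0.05), where 29.7% and 26.1% of all genes were called. ITGB5 rose with ERG and ETV1 (0.92 ± 0.06 and 1.08 ± 0.06, adjusted p = 1.22e-05 and 4.78e-06), as did ITGA2, a collagen receptor chain (0.96 ± 0.14 and 1.04 ± 0.14, adjusted p = 0.0013 and 0.00093). Of the 9 other laminin chain genes 1 rose and 3 fell with ERG (median -0.11). LAMC1, the widespread γ chain, rose 0.70 ± 0.07 with ERG (adjusted p = 0.000228), and LAMA1 and LAMB1 fell (-1.86 ± 0.18 and -1.12 ± 0.31, adjusted p = 0.000142 and 0.0243). Of 13 tested p63 targets 3 rose and 4 fell with ERG (median 0.11), among them S100A2 (-2.83 ± 0.37, adjusted p = 0.000677). The basal markers summed to 11.2 and 13.7 CPM with Empty, 11.4 and 11.9 with ERG and 10.8 and 13.4 with ETV1, so their sum did not separate the groups. The 4 mesenchymal markers, mainly FN1, summed to 699 and 846, 1885 and 1995, and 897 and 971 CPM, and their part in the results was not tested.

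**Figure D3:**
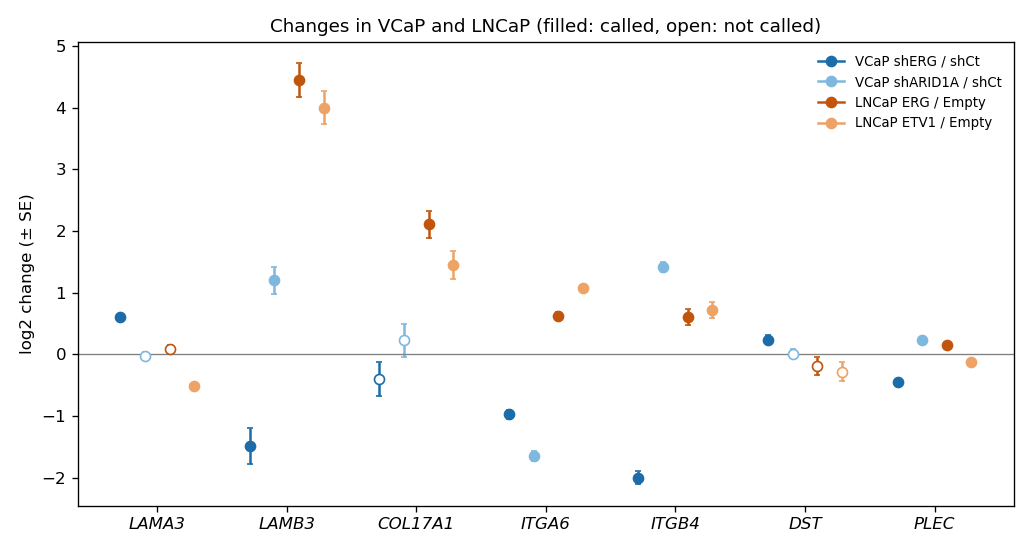
Log2 changes from edgeR for 7 genes in VCaP and LNCaP, each hairpin or ETS factor against its own control, with filled points called. Error bars are the approximate SE derived from the F statistic. ITGB4 and LAMB3 take opposite sides of 0 with shERG and shARID1A, and LAMB3 has the highest values, 4.45 and 4.00, with ERG and ETV1 in LNCaP.

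In SW13 without ERG, LAMB3 and COL17A1 went from nearly no reads to clear expression with BRG1, and far less with BRG1-K785R. With BRG1 against GFP 6 of 7 genes were called, 5 higher and 1 lower, where 62.4% of 17018 tested genes were called (32.2% higher, 30.2% lower). With BRG1-K785R against GFP 2 of 7 were called, both higher, against 58.7% (32.3% higher, 26.4% lower). That count was 4 with RLE scaling, with library totals, when genes with few reads were kept and with only the compared groups. It was 0 without the first GFP Empty library, 1 without the second BRG1-K785R Empty library and 4 without the second GFP Empty library or any 1 of the BRG1-K785R ERG and BRG1 ERG libraries. With BRG1 against BRG1-K785R 6 of 7 were called, all higher, against 66.7% (32.6% higher, 34.1% lower). The medians were 0.40, -0.05 and 0.50, against 0.03, 0.05 and 0.01 over all tested genes. Without LAMB3, whose GFP libraries had no read, they were 0.40, -0.08 and 0.48. These 3 comparisons share groups. With library totals, BRG1 against GFP and BRG1 against BRG1-K785R shift up by 0.133 and 0.213, and 64.0% and 66.0% of called genes are higher, against 51.6% and 48.9% with TMM.

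LAMB3 had 0 reads in all 4 GFP libraries, which allows up to 0.118 to 0.134 CPM each by a limit of 3 reads, and 1 read in each BRG1-K785R library without ERG. With BRG1 it had 569 and 627 reads, 21.4 and 25.2 CPM. Both BRG1 libraries thus stood far above all other SW13 libraries, at least 186-fold higher than GFP with the limit of 3 reads per library, and 566-fold above BRG1-K785R by counting (95% exact interval 156 to 4676). The adjusted p values were 1.22e-20 and 3.56e-20. LAMA3 read 0.223 and 0.353 CPM with GFP, 0.526 and 0.95 with BRG1-K785R and 3.95 and 5.06 with BRG1. LAMA3 was 13.8-fold higher with BRG1 than with GFP (3.79 ± 0.35, adjusted p = 5.1e-11) and 5.35-fold higher than with BRG1-K785R (2.42 ± 0.29, adjusted p = 1.07e-08). With BRG1-K785R it was called higher than with GFP (1.37 ± 0.49, adjusted p = 0.016), a call lost without the second BRG1-K785R library (0.93, adjusted p = 0.206) or the first GFP library (1.08, adjusted p = 0.122). Per length LAMB3 exceeded LAMA3 with BRG1, with a LAMA3 to LAMB3 RPKM ratio of 0.0739 to 0.0805.

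COL17A1 had 2 and 5 reads with GFP, 14 and 10 with BRG1-K785R and 1192 and 1040 with BRG1, or 44.8 and 41.8 CPM. It was 297-fold higher with BRG1 than with GFP by counting (95% exact interval 144 to 740.1, adjusted p = 1.63e-23), and its log2 change of 8.03 was 8.73 without the second GFP library. Against BRG1-K785R the change was 6.23 ± 0.20 (75.1-fold, adjusted p = 1.3e-22). With BRG1-K785R it was 3.38-fold above GFP by counting (1.41 to 9.28), called at adjusted p = 0.00684 and not without the first GFP library (adjusted p = 0.0795) or the first BRG1-K785R library (adjusted p = 0.0517). Its log2 change of 1.80 was 2.51 without the second GFP library.

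ITGA6 read 58.4 and 57.8 CPM with GFP, 52.3 and 50 with BRG1-K785R and 86.0 and 82.1 with BRG1. It was higher with BRG1 than with GFP (0.40 ± 0.09, adjusted p = 0.000142) and than with BRG1-K785R (0.50 ± 0.09, adjusted p = 5.56e-06). ITGB4 read 15.5 and 12.6 CPM with GFP, 10.6 and 10.8 with BRG1-K785R and 11.7 and 13.1 with BRG1. With BRG1-K785R it lay below GFP and just missed the threshold (-0.31 ± 0.14, adjusted p = 0.051). BRG1 and GFP overlapped, and the call of a lower ITGB4 (-0.31 ± 0.13, adjusted p = 0.0426) was lost with library totals (adjusted p = 0.264), with DESeq2 (adjusted p = 0.0989), without the first GFP library (adjusted p = 0.333) and without either BRG1 library (adjusted p = 0.229 and 0.0508). DST read 704 and 618 CPM with GFP, 607 and 603 with BRG1-K785R and 997 and 916 with BRG1, and was higher with BRG1 (0.40 ± 0.09 and 0.45 ± 0.09, adjusted p = 0.000345 and 8.29e-05). PLEC, at 295 and 246, 239 and 212, and 309 and 297 CPM in the same order, was not called with BRG1 against GFP (0.03 ± 0.08, adjusted p = 0.764), and with BRG1-K785R it lay below GFP and just missed the threshold (-0.18 ± 0.08, adjusted p = 0.0573). With BRG1 against BRG1-K785R it was called (0.21 ± 0.08, adjusted p = 0.0232), but not without the second BRG1-K785R library (0.12, adjusted p = 0.3) or the first BRG1 library (0.17, adjusted p = 0.157). Per length PLEC was below DST in all 12 SW13 libraries, at 0.464 to 0.765 times, where in VCaP it was 2.98 to 6.21 times and in LNCaP 27.6 to 43.1 times the level of DST.

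Other adhesion genes were higher with BRG1 as well, in a comparison where 62.4% of all tested genes were called. Of the 8 partners 7 were tested, and 6 rose and 1 fell against GFP. Their median was 3.35, or 2.80 with genes that had no read in GFP set to 3 reads per library. ITGA3 was 10.2-fold (adjusted p = 4.58e-26) and DSP, for desmoplakin, 40.4-fold higher (adjusted p = 6.43e-16), and ITGB1 fell by 0.51 ± 0.07 (adjusted p = 2.09e-07). Among the other integrin genes 12 of 13 tested rose (median 1.70), led by ITGB5 (3.25-fold, adjusted p = 5.18e-18) and ITGA2 (41.5-fold, adjusted p = 6.31e-16). Of 17 basement membrane genes 15 were tested, and 10 rose and 2 fell (median 1.27), SPARC the most firmly (138-fold, adjusted p = 2.97e-27). Of the p63 targets 12 were tested, and 9 rose and 1 fell (median 2.75, or 2.53 with the same limit), S100A2 by 18.0-fold (adjusted p = 5.32e-15). The proteases that trim laminin-332 rose in 5 of 8 tested cases, with PLAU up 16.1-fold (adjusted p = 1.74e-23) and BMP1 up 1.70 ± 0.08 on the log2 scale (adjusted p = 5.91e-18).

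The 6 basal or squamous markers summed to 0.401 and 0.744 CPM in the GFP libraries, 2.22 and 2.35 with BRG1-K785R and 19.1 and 19.7 with BRG1. Of these DSG3 was at 0 in both BRG1 libraries, and KRT5 reached at most 0.903 CPM in any SW13 library. The mesenchymal markers summed to 84.8 and 93.8, 138 and 146, and 203 and 207 CPM. The 8 luminal markers summed to 16.0 and 17.7, 21.5 and 23.3, and 71.4 and 72.6 CPM from the lower to the higher library of each group. All 3 sums moved with LAMB3 and COL17A1, and their part in the result was not tested.

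In SW13 with BRG1, ERG lowered LAMB3, COL17A1 and ITGB4 and raised ITGA6, while LAMA3 rose with ERG beside GFP and beside BRG1-K785R. With GFP 3 of 7 genes were called, all higher, where 26.0% of tested genes were called (12.6% higher, 13.5% lower). With BRG1-K785R 5 were called, 4 higher and 1 lower, against 56.2% (25.3% higher, 30.9% lower). With BRG1 6 were called, 1 higher and 5 lower, against 45.4% (22.6% higher, 22.8% lower). The medians were 0.13, 0.40 and -0.73, against 0, -0.01 and 0 over all tested genes, and 0.36, 0.36 and -0.48 without LAMB3. With library totals 62.0%, 64.5% and 42.7% of called genes are higher, against 48.3%, 45.1% and 49.9% with TMM, and changes with BRG1-K785R shift up by 0.183.

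With BRG1, LAMB3 went from 21.4 and 25.2 CPM to 4.12 and 4.06 with ERG. It was 5.51-fold lower (-2.46 ± 0.15, adjusted p = 3.46e-14), and remained at least 33.1-fold above the GFP libraries with ERG, which had no read. COL17A1 went from 44.8 and 41.8 CPM to 4.36 and 3.90, 10.2-fold lower (-3.35 ± 0.14, adjusted p = 7.83e-19). LAMA3 was not called, at 3.95 and 5.06 CPM without and 4.04 and 5.51 with ERG (0.13 ± 0.21, adjusted p = 0.638).

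With BRG1-K785R, LAMB3 had 1 read in each Empty library and 4 and 5 with ERG, a ratio by counting of 5.54 (1.15 to 52.7). That rise was called at adjusted p = 0.0409 and lost with DESeq2 (adjusted p = 0.0804), when genes with few reads were kept (adjusted p = 0.053) and without any 1 of the 4 libraries (adjusted p = 0.0686 to 0.155). COL17A1 was not called with ERG beside BRG1-K785R (0.33 ± 0.41, adjusted p = 0.513), nor beside GFP, where it had 2 and 5 reads without and 7 and 1 with ERG (adjusted p = 0.934). LAMA3 rose in both, from 0.223 and 0.353 to 1.55 and 1.0 CPM with GFP (2.06 ± 0.43, adjusted p = 0.000743) and from 0.526 and 0.95 to 3.39 and 3.89 with BRG1-K785R (2.14 ± 0.31, adjusted p = 5e-07).

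The α6 and β4 subunits went opposite ways with ERG. ITGA6 went from 58.4 and 57.8 to 64.0 and 67.4 CPM with GFP (0.13 ± 0.09, adjusted p = 0.307), from 52.3 and 50 to 98.7 and 92.5 with BRG1-K785R (0.71 ± 0.09, adjusted p = 2.15e-08) and from 86.0 and 82.1 to 139 and 172 with BRG1 (0.93 ± 0.08, adjusted p = 6.28e-11). ITGB4 overlapped with GFP, at 15.5 and 12.6 without and 11.8 and 13.3 CPM with ERG (adjusted p = 0.262). It fell from 10.6 and 10.8 to 8.00 and 5.61 with BRG1-K785R (-0.84 ± 0.15, adjusted p = 1.99e-05) and from 11.7 and 13.1 to 5.40 and 5.79 with BRG1 (-1.10 ± 0.15, adjusted p = 2.89e-07). The RPKM ratio of ITGA6 to ITGB4 with BRG1 was 6.56 to 7.72 without ERG and 26.9 to 31.1 with it.

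DST and PLEC rose with ERG beside GFP and fell beside BRG1. DST went from 704 and 618 to 1034 and 1021 CPM with GFP (0.59 ± 0.09, adjusted p = 2.47e-05), from 607 and 603 to 662 and 745 with BRG1-K785R (0.03 ± 0.09, adjusted p = 0.817) and from 997 and 916 to 468 and 649 with BRG1 (-0.73 ± 0.09, adjusted p = 1.07e-07). PLEC went from 295 and 246 to 493 and 476 CPM (0.79 ± 0.08, adjusted p = 1.63e-08), from 239 and 212 to 314 and 366 (0.40 ± 0.08, adjusted p = 8.67e-05) and from 309 and 297 to 239 and 265 (-0.22 ± 0.08, adjusted p = 0.027). The last call was lost without either BRG1 Empty library (adjusted p = 0.171 and 0.0538) or the first BRG1 ERG library (adjusted p = 0.258).

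**Figure D4:**
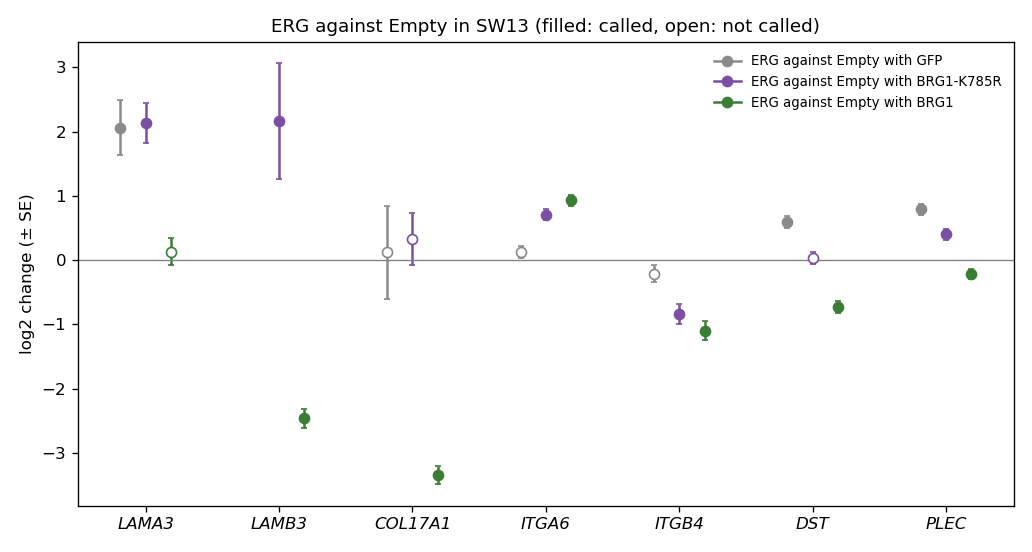
Log2 changes from edgeR for ERG against Empty in the 3 SW13 backgrounds, with filled points called and LAMB3 with GFP left out because it had no read. Error bars are the approximate SE derived from the F statistic. With BRG1 COL17A1 and LAMB3 lie at -3.35 and -2.46, and ITGA6 at 0.93.

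The differences between these ERG effects were tested as interactions. Beside BRG1-K785R the SMARCA4 level, given above, was lower with ERG than without. Its part in the ERG effects beside BRG1-K785R and in these differences was not tested. The ERG level beside GFP is not given here, and the part of ERG levels in these differences was not tested. Between BRG1 and GFP 6 of 7 genes were called, 1 higher and 5 lower with BRG1, where 37.8% of tested genes were called (19.1% higher, 18.7% lower). Between BRG1 and BRG1-K785R 5 were called, all lower, against 46.2% (25.8% higher, 20.4% lower), and between BRG1-K785R and GFP 4 were called, 1 higher and 3 lower, against 39.8% (17.5% higher, 22.4% lower). Without LAMB3 the medians were -1.16, -0.69 and -0.16, against -0.02, 0.05 and -0.03 over all tested genes. The ERG effect on COL17A1 with BRG1 differed from that with BRG1-K785R by -3.68 ± 0.46 (adjusted p = 1.16e-07), and LAMB3 by -4.62 ± 0.90 (adjusted p = 0.000101), the latter resting on 1 to 5 reads in each BRG1-K785R library. For COL17A1 the difference from GFP was -3.46 ± 0.82 (adjusted p = 0.00118), and without the first GFP ERG library it was -1.61 and not called (adjusted p = 0.572). Without the second GFP ERG or the second GFP Empty library it was -4.22 and -4.17. LAMA3 differed by -1.92 ± 0.49 from GFP and -2.01 ± 0.38 from BRG1-K785R (adjusted p = 0.00238 and 6.09e-05). For LAMB3 no difference from GFP can be given, since all 4 GFP libraries had no read. DST and PLEC differed from GFP by -1.31 ± 0.13 and -1.01 ± 0.11 (adjusted p = 3.84e-09 and 4.3e-08). ITGA6 differed from GFP by 0.81 ± 0.12 (adjusted p = 3.35e-06) and was not called against BRG1-K785R (0.22 ± 0.12, adjusted p = 0.136). Between BRG1-K785R and GFP the difference was -0.63 ± 0.20 for ITGB4 and -0.39 ± 0.11 for PLEC (adjusted p = 0.0131 and 0.00703). Both calls were lost with library totals (adjusted p = 0.0644 and 0.105) and without the second GFP Empty library (adjusted p = 0.0748 and 0.073). That of ITGB4 was also lost without the second GFP ERG or BRG1-K785R ERG library (adjusted p = 0.0698 and 0.166), and that of PLEC without the first BRG1-K785R Empty library (adjusted p = 0.0648). With library totals, the difference between BRG1 and BRG1-K785R shifts by -0.233 and that between BRG1-K785R and GFP by 0.132. Of the genes called for the 3 differences 37.1%, 29.9% and 59.8% are then higher, against 50.4%, 55.8% and 43.8% with TMM.

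With ERG present in every group, all 7 genes differed between BRG1 and GFP, 4 higher and 3 lower with BRG1, against 58.9% of tested genes (30.4% higher, 28.5% lower), and all 7 between BRG1-K785R and GFP, 4 higher and 3 lower, against 40.5% (20.5% higher, 20.0% lower). Between BRG1 and BRG1-K785R 5 of 7 did, 3 higher and 2 lower, against 47.0% (24.3% higher, 22.6% lower). The medians were 1.21, 0.49 and 0.41, or 0.15, -0.04 and 0.07 without LAMB3. The LAMB3 call between BRG1-K785R and GFP (adjusted p = 0.00227) rested on 4 and 5 reads against 0. With the limit of 3 reads per library that is at least 1.84-fold. COL17A1 was 25.0-fold above GFP with BRG1 by counting (12.5 to 58.8) and 4.30-fold with BRG1-K785R (1.91 to 10.9). The latter call was lost without the second GFP ERG library (1.25 on the log2 scale, adjusted p = 0.0787), while without the first the log2 changes with BRG1 and BRG1-K785R were 6.42 and 3.86, from 4.57 and 2.01. Without the second, that with BRG1 was 3.80. DST was lower with BRG1 than with BRG1-K785R (-0.31 ± 0.09, adjusted p = 0.00637), a call lost with DESeq2 (adjusted p = 0.0883) and without the second BRG1-K785R or the first BRG1 library (adjusted p = 0.0518 and 0.428). ITGA6 was 2.31-fold higher and ITGB4 2.3-fold lower with BRG1 than with GFP (adjusted p = 5.49e-14 and 2.44e-08), and DST and PLEC were lower by 0.91 ± 0.09 and 0.98 ± 0.08 (adjusted p = 4.57e-10 and 4.08e-12). SMARCA4 was 1.51-fold higher with BRG1 than with BRG1-K785R in these libraries (adjusted p = 1.23e-07), and ERG read 1859 and 2148 CPM against 1609 and 1585. Those levels move with the contrast between BRG1 and BRG1-K785R, and their part in it was not tested.

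Partner genes fell with ERG beside BRG1 too, where 45.4% of all tested genes were called. Of 7 tested partners 1 rose and 5 fell (median -0.63), with DSP at -1.58 ± 0.19, ITGA3 at -0.63 ± 0.07 (adjusted p = 3.34e-08 and 1.1e-08) and KRT5 down from 24 and 21 reads to 2 and 0 (adjusted p = 4.39e-05), while ITGB1 rose (0.46 ± 0.07, adjusted p = 3.34e-06). Of 12 tested p63 targets 1 rose and 8 fell (median -1.29), among them TRIM29 (-3.85 ± 0.44, adjusted p = 2.07e-08), SFN (-3.04 ± 0.47, adjusted p = 2.91e-06) and S100A2 (-1.45 ± 0.19, adjusted p = 1.32e-07). The other integrin genes were divided, 4 rising and 6 falling of 13, with ITGA2 at -2.53 ± 0.22 and ITGA5 at 0.75 ± 0.07 (adjusted p = 2.43e-11 and 6.61e-10). Of the 7 tested other laminin chain genes 4 fell and 3 were not called, with LAMB1 down by 1.45 ± 0.09 (adjusted p = 7.69e-15). SPARC rose 14.2-fold (adjusted p = 3.22e-25). The basal markers summed to 3.58 and 4.12 CPM with BRG1 and ERG against 19.1 and 19.7 with BRG1 alone. The luminal markers summed to 147 and 196 CPM against 71.4 and 72.6, and the mesenchymal markers to 173 and 178 against 203 and 207. Their part in the falls of LAMB3 and COL17A1 was not tested.

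Likeness of pattern was measured as Pearson's r over the 12 group means of log2(CPM + 1), each minus the mean of its cell line, and is a description without a test over groups that share lines and controls. Within the set LAMB3 and COL17A1 had the highest r, 0.892, DST and PLEC had 0.553, and ITGA6 and ITGB4 had -0.429. Among all genes with a group mean of 5 CPM or more, the 3 closest to LAMB3 were ITGB5 (0.932), PRSS23 (0.925) and KRT75 (0.922), a keratin gene. KRT75 stood at 25.3 ± 2.58 CPM in SW13 with BRG1 alone, 2.01 ± 0.554 with BRG1 and ERG and 10.1 ± 0.437 in LNCaP with ERG, and 0.0357 ± 0.0505 in LNCaP Empty. The closest to COL17A1 were ADAMTS15 (0.962), ITGA2 (0.960) and FGF1 (0.952). ADAMTS15, a secreted protease gene, stood at 38.5 ± 1.55 CPM with BRG1 and 4.01 ± 0.770 with BRG1 and ERG.

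The closest to LAMA3 were SRGAP2D (0.965), FAM73B (0.965) and SRGAP2C (0.964), and the first and last are near-identical copies whose reads may be split. Those closest to ITGA6 were TMEM123 (0.923), VTN (0.903) and UNC79 (0.862), and to ITGB4 SLC16A13 (0.963), TRMT2B (0.953) and ERLIN1 (0.953). In group means VTN reached at most 0.201 CPM in LNCaP and 0.892 in SW13, and UNC79 0.894 and 1.76. The likeness of VTN and UNC79 to ITGA6 in those 2 lines thus rests on low levels. DST was closest to SPDYE2 and SPDYE2B (both 0.919, near-identical copies) and NF1 (0.908), and PLEC to PABPC1L (0.897), MEGF11 (0.891) and ROCK2 (0.888). With 0.1 in place of 1 added to the CPM, 11 of these 21 genes were again among the closest 3. None of those named for LAMA3 or LAMB3 was, and for COL17A1 only ITGA2 was. With 0.1 added, KRT75 still had an r of 0.935 with LAMB3, and ADAMTS15 0.957 with COL17A1.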

How the data were processed

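RNA from 24 libraries of VCaP, LNCaP and SW13 cells had been sequenced after polyA selection. The deposited tables give for each gene a read count and an RPKM made by the authors. The reads were handled with STAR 2.3.1 and hg19, per the submitters' processing notes. Which program and annotation gave the counts, and whether strand was used, is not given in the sources used here. RPKM recomputed from the counts and deposited lengths differed from the deposited values by at most 5.03e-06 of the value.

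Counts were tested with edgeR 4.0.16 (R 4.3.3): filterByExpr by group, TMM scaling, and quasi-likelihood fits per cell line over all its groups, with Benjamini-Hochberg adjustment over 16791, 16993 and 17018 genes in VCaP, LNCaP and SW13 and a threshold of 0.05. Residual degrees of freedom were 3, 3 and 6. CPM used library totals. The scripts were tested on simulated data. A group with no read was set to 3 reads per library, and ratios with 1 to 3 reads in a library carry 95% exact intervals. These cover counting error only. Alternatives were RLE scaling, library totals, no filter, DESeq2 1.42.0, only the compared groups, a replicate block and leaving out each library. From each gene list at most 4 called genes of the smallest adjusted p were named per comparison, and a gene named in one comparison may be given in its counterpart. For each gene described the 3 of closest pattern were named. The genes and lists were chosen with earlier results of these data known. Some genes counted in the lists are not reported here by name.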

Additional observations from a re-analysis of the deposited data

Results flagged for a closer look

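The ERG effect in SW13 differed between backgrounds for these genes by the interaction test of edgeR. Between BRG1 and GFP the differences in log2 change were -1.92 for LAMA3, -3.46 for COL17A1, 0.81 for ITGA6, -0.89 for ITGB4, -1.31 for DST and -1.01 for PLEC. Between BRG1 and BRG1-K785R they were -2.01 for LAMA3, -4.62 for LAMB3, -3.68 for COL17A1, -0.76 for DST and -0.62 for PLEC. Between BRG1-K785R and GFP they were 0.59 for ITGA6, -0.63 for ITGB4, -0.56 for DST and -0.39 for PLEC. The 3 differences share groups, so they are not independent of each other. Of all tested genes 37.8%, 46.2% and 39.8% were called for them in the same order. COL17A1 between BRG1 and GFP was -1.61 without the first GFP ERG library. LAMB3 rested on 1 to 5 reads in each BRG1-K785R library. The calls of ITGB4 and PLEC between BRG1-K785R and GFP were lost with library totals.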

How the results depend on the processing

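No value of the genes described that was called changed sign under any alternative run. Over the alternatives that leave out 1 library, 1201 of 1260 values kept their side of the threshold, 41 lost a call and 18 gained one, and over the others 722 of 750 did, 15 lost and 13 gained one. Of the genes described, 5 were called for ERG against Empty in LNCaP, and 3 to 5 when 1 library was left out. For BRG1-K785R against GFP without ERG 2 were called, but 4 with RLE scaling, with library totals, with no filter on low counts and with only the compared groups, and 0 to 4 when 1 library was left out. For the difference of ERG effects between BRG1-K785R and GFP 4 were called, but 2 with library totals, and 2 to 5 when 1 library was left out. The cause was not tested.

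Over all genes, 5045 were called for ERG against Empty in LNCaP, but 2632 and 2939 without the first or second Empty library. For ETV1 against Empty 4439 were called, but 1987, 2706 and 2601 without the first Empty, second Empty or second ETV1 library. For ERG against ETV1 2441 were called, but 1471, 1529 and 1003 without the first ERG, first ETV1 or second ETV1 library. For ERG with GFP in SW13 4433 were called, but 1743, 2199 and 2474 without the second Empty, first ERG or second ERG library. Fewer libraries leave fewer degrees of freedom, but the numbers called also differed with which library was left out. The cause of these lower numbers was not tested.

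The replicate numbers did not pair the libraries. Deviations of same-numbered libraries from their group means correlated across genes at -0.00913 to 0.0364 in VCaP, -0.08 to -0.0197 in LNCaP and -0.0982 to 0.12 in SW13. With the replicate block 6 rather than 7 of the genes were called for shARID1A against shERG, 5 rather than 6 for ETV1 against Empty and 3 rather than 2 for BRG1-K785R against GFP without ERG. The calls lost were those of COL17A1 (adjusted p = 0.052) and PLEC (adjusted p = 0.0818). With 2 libraries per group, at most 10 reads of TP63 in any library and at most 5 of LAMB3 in the GFP and BRG1-K785R libraries, small changes of these genes were not detectable at this depth.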
